A study of Drosophila melanogaster with 6 samples.

Results

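The serpin genes of Drosophila melanogaster were followed in the RNA of whole larval intestines. They were chosen by name, as the genes in the deposited counts whose FlyBase symbol is Spn followed by a digit, together with nec and Acp76A. This gave 29 genes among the 17895 genes and 24278 entries of the table. Of these, 8 lie on chromosome arm 2L, 12 on 2R, 5 on 3L and 4 on 3R.

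Serpins are protease inhibitors that offer a bait loop to a protease, which cleaves it and is then trapped by a refolding of the inhibitor. In insects many of them are secreted and hold back the serine protease cascades of the blood, which process Spätzle, the ligand of the Toll receptor, and activate the prophenoloxidases that make melanin. Some serpins act inside the secretory pathway, and others belong to the seminal fluid of males.

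The 2 genotypes had 3 libraries each and are called control and EcRi, as in the labels. All larvae, controls included, carried LexO-spok RNAi with Tub-LexA, directed at an ecdysone synthesis gene throughout the animal. They also carried UAS-EcR RNAi, directed at the ecdysone receptor, and Tub-GAL80ts. By the study, GAL80ts holds both GAL4 and this LexA driver inactive at the lower temperature, and knockdown is induced at 29 °C. The study also states that EcR represses its targets when ecdysone is absent, so that its knockdown de-represses them. By the crosses, only the EcRi larvae carried Myo1A-GAL4, a driver of enterocytes, although the titles of the control samples also name myo1a, and this difference between the sources was not settled. Eggs were collected over 8 h, and the animals then spent 6 days at 18 °C followed by 4 days at 29 °C. The replicates are labelled as biological, with no word on how many larvae each held or whether cultures were separate, so p-values measure the spread between these samples.

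Library totals lay between 200890663 and 246255664 counts. Values are given in CPM, the count of a gene scaled to a common library size with edgeR's TMM factors, as mean ± SD over 3 libraries. 3 counts in a library correspond to between 0.0122 and 0.0149 CPM before TMM, which is used as the limit of detection and covers counting error only. EcR itself had 33.5 ± 10.5 CPM in control libraries and 29.8 ± 1.87 CPM in those of EcRi (n = 3 each), and edgeR's quasi-likelihood test did not call it (log2 fold change -0.17, adjusted p = 0.517). This is a value over all cells of the intestine and does not check the labels in enterocytes, so EcRi below means the libraries with that label.

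Most serpin transcripts of the control intestine came from other serpin genes than those of the EcRi intestine. In the control, Spn55B and Spn42Da together held between 79.4 and 81.3% of all serpin counts. In EcRi they held between 18.4 and 21.2%, and Spn27A, Spn28Dc and Spn88Ea held between 62.6 and 66.0%, where the same 3 genes had made up between 3.84 and 5.30% in the control. These shares are ratios within a library and do not depend on the scaling between libraries.

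**Figure D1:**
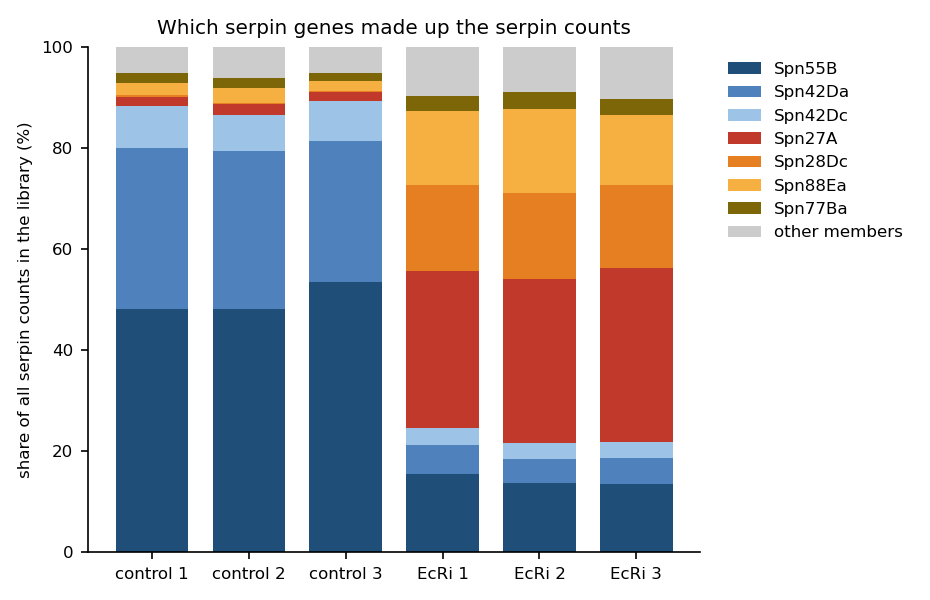
Share of all serpin counts (%, y axis) taken by 7 named serpin genes and the remaining members in each of the 6 libraries (x axis). Spn55B, Spn42Da and Spn42Dc in blue make up most of each control library, and Spn27A, Spn28Dc and Spn88Ea in red to yellow make up between 62.6 and 66.0% of each EcRi library.

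All 29 genes together summed to 749 ± 43.4 CPM in control libraries and to 1399.8 ± 54.5 CPM in EcRi ones (SD, n = 3), a ratio of 1.87, or 2.94 when libraries were scaled by their totals alone. In the control 7 members reached 10 CPM, and in EcRi 13 did.

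Of the 29 genes, 21 passed edgeR's filter on low counts and were tested together with all 12193 entries that passed. With an adjusted p below 0.05, 13 members were higher in EcRi and 5 were lower, which is 61.9 and 23.8% of those tested, whereas 30.1% of all tested entries were higher and 29.3% were lower (59.5% in either direction). Their median log2 fold change was 1.67, beside 0.03 for all tested entries. Scaling by total counts moved the median of all entries up by 0.65 to 0.68, and 15 members were then higher and 2 lower (median 2.31), beside 57.3 and 12.7% of all entries. Spn43Ad, Spn77Bc and Spn100A passed the filter through their EcRi libraries alone and Spn75F through the control alone. Whether these genes were tested thus depended on the genotype in which they were higher. Without these 4 genes, 10 of 17 members were higher and 4 were lower.

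A log2 fold change above 3 was found for 9 of the 21 tested members, against 5.54% of all entries. Spn43Ad and Spn100A, which passed the filter through EcRi alone, are among these 9. The control and EcRi libraries did not overlap in 18 of the 21 tested members, or 85.7%, beside 68.3% of all tested entries, and in 13 members, or 61.9%, every EcRi library lay above every control library, as in 34.9% of all entries. These 18 were the called members. They include Spn43Ad, Spn77Bc, Spn100A and Spn75F, which passed the filter only through the genotype in which they were higher. The separation of these genes is no separate support. For each of the 18, the exact permutation test, two-sided and on log2 CPM, gave p = 0.1, and with 3 libraries a genotype it can give none smaller.

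**Figure D2:**
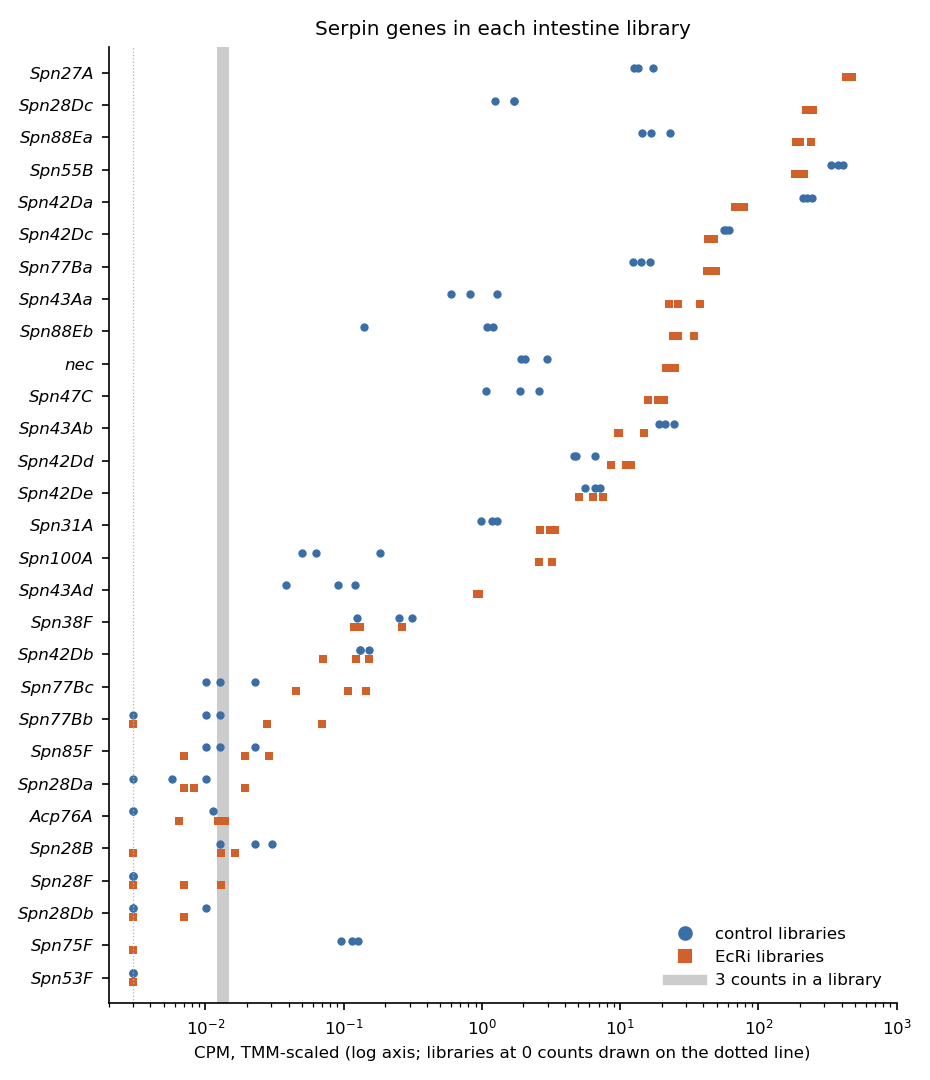
Abundance of the 29 serpin genes (CPM, TMM-scaled, log axis) in the 3 control (blue circles) and 3 EcRi libraries (orange squares), ordered by their mean in EcRi, with libraries at 0 counts on the dotted line and the level of 3 counts in grey. Spn27A, Spn28Dc and Spn88Ea stand at the top in EcRi, and Spn55B and Spn42Da have the highest control values.

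Among serpins that limit melanization, Spn27A, which also restrains Toll signalling in the early embryo, rose most in absolute level. Spn27A (FBgn0028990) is on the minus strand of chromosome 2L of BDGP6 (dm6 coordinates) from 6671065 to 6673347, with a single annotated exon block of 2283 bp. The control libraries had 12.6, 17.2 and 13.5 CPM and the EcRi libraries 429.5, 474 and 468 CPM. The lowest EcRi library was thus more than an order of magnitude above the highest control library. By edgeR's test the log2 fold change was 4.98 (standard error 0.16) with an adjusted p of 8.14e-07, a fold of 31.7. Per kb of exon, Spn27A went from the 7th highest of the family in the control (6.32 CPM per kb) to the highest in EcRi (200.2 CPM per kb).

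Spn28Dc (FBgn0031973), another regulator of melanization, had the largest increase of the family. It is on the minus strand of 2L from 8004548 to 8007210. Its level was 1.70, 1.70 and 1.24 CPM in control libraries and 234, 249 and 223 CPM in EcRi ones. The libraries of each genotype were close together, and the control counts, between 196 and 337 a library, were well above the limit of detection. The log2 fold change was 7.25 (standard error 0.17, adjusted p = 2.4e-07), a fold of 152. The other serpin genes named after the 28D region, Spn28Da and Spn28Db, lie to the left of Spn28Dc on the same arm, 158 bp from each other, and had at most 6 counts in any library.

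Spn77Ba (FBgn0262057), which blocks melanization in the tracheae, is on the plus strand of 3L from 20317190 to 20320116. It was measured at 14.1, 16.4 and 12.4 CPM in control libraries and at 42.8, 49.1 and 44.6 CPM in EcRi ones. This was a moderate rise beside that of the former genes (log2 fold change 1.67, standard error 0.12, adjusted p = 2.11e-05). An antisense RNA, asRNA:CR43875, shares 94 bp of exon with Spn77Ba, and how the counting treated strand was not stated.

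Of the serpins that restrain Toll signalling, nec and Spn88Ea both rose. The nec gene (FBgn0002930, minus strand of 2R from 7156477 to 7158241) encodes Necrotic, which keeps the Toll pathway of the immune response from firing through the protease Persephone. It was at 2.05, 2.96 and 1.92 CPM in control libraries and 21.3, 25.1 and 24.6 CPM in EcRi ones, with no overlap. Its log2 fold change was 3.36 (standard error 0.18, adjusted p = 8.64e-06).

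Spn88Ea (FBgn0028984, minus strand of 3R from 15203069 to 15206447), a negative regulator of Toll that is also needed for wing expansion, had 16.6, 22.8 and 14.4 CPM in the control. In EcRi it had 201, 242 and 186 CPM, and with 138 CPM per kb of exon it was among the 3 highest of the family. The log2 fold change was 3.55 (standard error 0.20, adjusted p = 1.07e-05). Spn42Dd, which has been linked to the Toll response to fungi, had 920, 1156 and 752 counts in the control and 2075, 3685 and 3168 in EcRi, or 5.33 ± 1.10 and 10.5 ± 1.75 CPM. It rose by 0.98 on the log2 scale (standard error 0.18, adjusted p = 0.0025).

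The most abundant serpins of the control intestine went the other way. Spn42Da (FBgn0265137, minus strand of 2R from 6875906 to 6878927) encodes an inhibitor of furin-like proprotein convertases, and splice forms of it differ in the bait loop and in a signal for retention in the secretory pathway. It fell from 225, 246 and 211 CPM in the control to 78.5, 67.7 and 69.4 CPM in EcRi. The log2 fold change was -1.66 (standard error 0.10, adjusted p = 1.31e-05), and it was -1.02 with total-count scaling, where Spn42Da was still called lower. Counts are per gene, so the splice forms were not distinguished, and asRNA:CR44169 on the other strand shares 281 bp of its exons.

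Spn55B (FBgn0028983, plus strand of 2R from 18126347 to 18128210) was the most abundant serpin of the control per kb of exon, at 288 CPM per kb. It was at 337, 379 and 406 CPM in control libraries and at 214, 201 and 184 CPM in EcRi ones. With TMM it was called lower (log2 fold change -0.90, standard error 0.11, adjusted p = 0.000302), but with total-count scaling it was at -0.25 with an adjusted p of 0.0693. The fall of Spn55B therefore rests on the scaling. Relative to Spn55B in the same library, which no scaling changes, the log2 ratio of Spn27A averaged -4.70 in the control and 1.19 in EcRi.

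Spn43Ab had 19.1, 24.4 and 21.0 CPM in control libraries and 9.59, 9.89 and 14.9 CPM in EcRi ones. Spn42Dc had 58.2, 56.0 and 61.1 CPM in control libraries and 47.6, 46.9 and 43.1 CPM in EcRi ones. Their libraries did not overlap between the genotypes, and both genes were called lower with TMM (log2 fold changes -0.91 and -0.35, adjusted p = 0.00458 and 0.00638). With total-count scaling Spn43Ab was at -0.25 (adjusted p = 0.326) and Spn42Dc turned to 0.30 (adjusted p = 0.024). The direction of Spn42Dc is thus set by the scaling, and Spn42Da and Spn75F were the only members called lower under both.

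**Figure D3:**
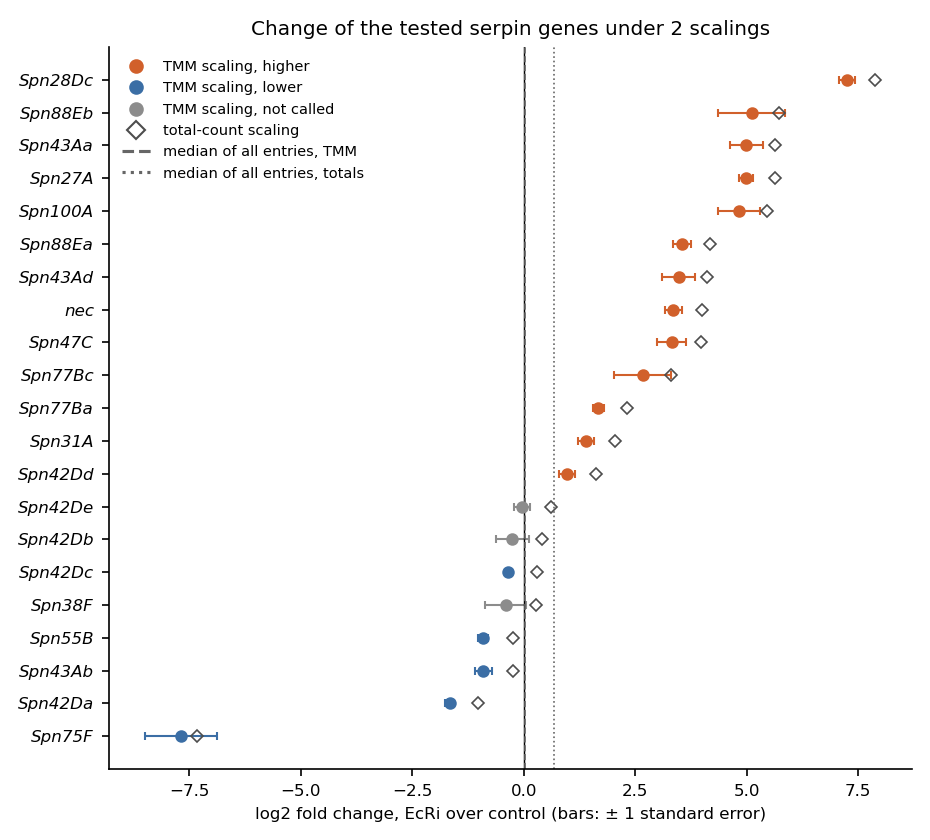
Log2 fold change of the 21 tested serpin genes (x axis, EcRi over control, bars ± 1 standard error, n = 3 libraries a genotype) with TMM scaling (filled circles, coloured by call) and with total-count scaling (open diamonds), and the median of all tested entries under each scaling (dashed and dotted lines). The 13 genes that rose lie above 0 under both scalings, Spn42Dc changes sign, and Spn55B and Spn43Ab move close to 0. The fitted value of Spn75F, at 0 counts in all EcRi libraries, is not a measured fold.

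The remaining increases were found in genes that were low in the control. Spn43Aa had 255, 105 and 129 counts in control libraries, or 0.901 ± 0.350 CPM, and had 37.8, 22.5 and 26.2 CPM in EcRi (log2 fold change 4.99, standard error 0.37, adjusted p = 7.82e-05). CG12828, on the other strand with at most 2 counts a library, shares 116 bp of its exons. Spn88Eb had 1.09, 1.20 and 0.139 CPM in control libraries and 24.2, 26.2 and 34.2 CPM in EcRi ones. Control replicate 3 was far below the other control libraries, and the standard error was wide (log2 fold change 5.11, standard error 0.76, adjusted p = 0.00255). Leaving out any single library kept the value between 4.63 and 5.49.

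Spn47C was at 1.07, 2.58 and 1.90 CPM in control libraries and at 18.6, 20.6 and 15.9 CPM in EcRi ones, which is 3.32 higher on the log2 scale (standard error 0.33, adjusted p = 0.000252). Spn100A had 10, 32 and 10 counts in the control libraries and 629, 807 and 927 in EcRi (log2 fold change 4.82, standard error 0.46, adjusted p = 0.000105), and without control replicate 2 the log2 fold change was 5.61. For Spn47C and Spn100A every EcRi library lay above every control library, as in 34.9% of all tested entries. Spn100A passed the filter through its EcRi libraries alone, so its separation is no separate support. Spn31A and Spn43Ad, outside the rule for named genes, had log2 fold changes of 1.40 and 3.47 at levels of 3.05 and 0.946 CPM in EcRi.

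The serpin genes that lie within 100 kb of a neighbour formed 6 groups with 18 genes, and the other 11 stood alone. Neighbours did not share a direction in every group. In the 43A group, Spn43Aa, Spn43Ad and nec were called higher and Spn43Ab, between Spn43Aa and Spn43Ad, was called lower with TMM and not called with total-count scaling. Spn43Ab and Spn43Ad lie 95 bp apart on the same strand.

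Within each library, which leaves the scaling aside, the log2 ratio of Spn43Aa to Spn43Ab was -3.89, -5.35 and -4.68 in the control and 1.98, 1.19 and 0.81 in EcRi. The ratio of nec to Spn43Ab went from between -3.45 and -3.05 to between 0.72 and 1.35. Spn43Ab was thus the most abundant of the group in the control and was below Spn43Aa and nec in EcRi, in CPM not divided by length. The summed level of the group went from 24.8 ± 2.91 to 64.9 ± 5.76 CPM (SD, n = 3, no test of the sum).

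The 42D group holds Spn42Da, Spn42Db, Spn42Dc, Spn42Dd and Spn42De between positions 6875906 and 6888262 of 2R. Its summed level was 298 ± 16.5 CPM in control libraries and 135 ± 6.23 CPM in EcRi ones, a ratio of 0.452, or 0.708 with total-count scaling. Spn42Da made up most of this sum in the control. The log2 ratio of Spn42Dd to Spn42Da was -5.60, -5.22 and -5.47 in the control and -3.20, -2.51 and -2.65 in EcRi, so the genes of the group did not move as a unit.

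Spn42De was at 6.46 ± 0.827 and 6.29 ± 1.26 CPM and was not called with TMM (adjusted p = 0.866), but was called higher with total-count scaling (0.61, adjusted p = 0.0142). Spn42Db had between 22 and 44 counts a library, shares 380 bp of exon with asRNA:CR44169 and was not called. Spn42Dc and Spn42Dd share 63 bp of exon on the same strand, and reads in this stretch cannot be assigned to either of them with certainty.

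In the 88E group both genes rose, and the sum went from 18.7 ± 4.79 to 238 ± 26.4 CPM, a ratio of 12.7. Spn88Ea and Spn88Eb are 255 bp apart on the same strand, and Spn88Ea was the more abundant in all 6 libraries, by 2.45 or more on the log2 scale. In the 77B group, Spn77Ba held nearly all of the counts. Spn77Bb had at most 17 counts in a library, and Spn77Bc had 2, 4 and 2 in the control and 26, 14 and 42 in EcRi (adjusted p = 0.00784).

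**Figure D4:**
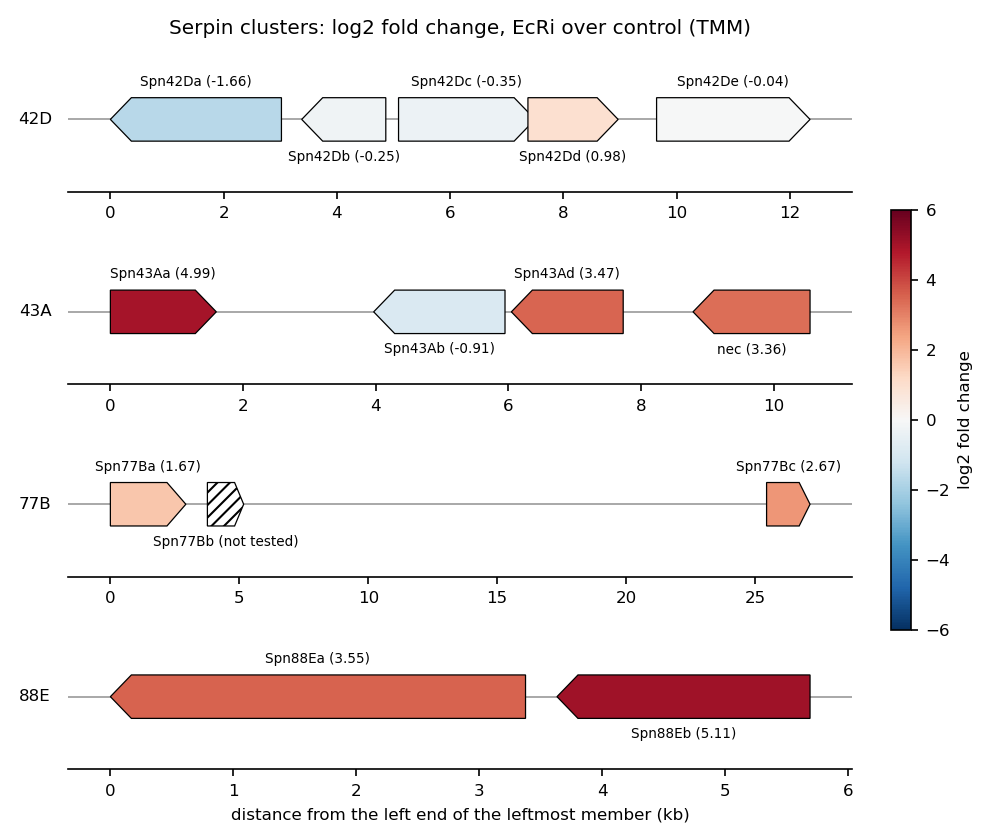
Serpin genes of the 42D, 43A, 77B and 88E groups drawn to scale by their distance in kb from the left end of the leftmost gene (x axis, a separate scale for each group), with arrows in the direction of transcription, filled by the log2 fold change EcRi over control with TMM scaling, which is printed beside each name (hatched: not tested). Spn43Ab (-0.91) lies between Spn43Aa (4.99) and Spn43Ad (3.47), and both genes of 88E are above 3; with total-count scaling Spn42Dc turns to 0.30, and Spn42Db (0.40) and Spn42De (0.61) are also above 0.

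Acp76A was at or near the limit of detection, and its neighbour Spn75F was low in the control and at 0 in EcRi. Acp76A, which encodes a serpin of the male seminal fluid, had 0, 2 and 0 counts in the control and 3, 2 and 4 in EcRi, and was not tested. Spn75F, on 3L at a distance of 76423 bp, had 19, 20 and 20 counts in the control and 0 in every EcRi library. It was called lower (adjusted p = 0.000502), and against 3 counts per library it was at least 6.57-fold lower in EcRi, scaled by library totals.

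The 8 members that were not tested were Spn28B, Spn28Da, Spn28Db, Spn28F, Spn53F, Acp76A, Spn77Bb and Spn85F, with at most 17 counts in any library and 0 in all of them for Spn53F. The antisense RNA asRNA:CR45272 covers all 1279 bp of Spn53F exon, and with the strand setting unknown this 0 may not reflect its level. Spn38F, at 0.229 ± 0.0942 and 0.172 ± 0.0805 CPM, was tested and not called (adjusted p = 0.476). Among all entries with 1 to 20 counts in a library, between 62.0 and 65.3% of the values were even, beside between 49.4 and 50.0% of those above 1000 counts, and whether both mates of a read pair were counted is not stated in the sources used here. With all counts halved, Spn75F and Spn77Bc no longer passed the filter.

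The genes of the Toll and melanization cascades in which serpins act were followed as a list of 38 genes, of which 36 were tested. Of these, 25 were higher and 5 lower in EcRi, beside 30.1 and 29.3% of all tested entries, and the median of their log2 fold changes was 1.21. With total-count scaling 30 were higher and 4 lower, beside 57.3 and 12.7% of all entries, with a median of 1.86 beside 0.68 for all entries.

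Of 10 tested protease genes of the cascades, 8 were higher with TMM and 10 with total-count scaling. Of all tested entries, 30.1 and 57.3% were higher. None of the 10 proteases was lower under either scaling. spirit rose from 0.763 ± 0.132 to 14.0 ± 0.867 CPM, grass from 5.86 ± 0.929 to 41.8 ± 2.86 CPM and Sp7, a protease of the melanization cascade, from 5.74 ± 1.38 to 24.1 ± 2.69 CPM (log2 fold changes 4.19, 2.84 and 2.07, adjusted p of at most 7.42e-05). The proteases modSP and ea rose as well, to 14.8 and 12.9 CPM. The genes called higher thus included serpins and proteases of the same cascades, and the activity of neither was measured.

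Of 4 tested genes of recognition proteins, 3 were higher and 1 was lower, beside 30.1 and 29.3% of all tested entries. PGRP-SA and GNBP3 were at 20.3 and 17.6 CPM in EcRi, 2.21 and 2.71 higher on the log2 scale, GNBP1 was 0.57 higher, and PGRP-SD was lower under both scalings (-1.64 with TMM, adjusted p = 0.000684). The Toll ligand gene spz was 1.81 higher. Of 8 tested genes of the receptor and of proteins that act below it, 6 were higher with TMM, beside 30.1% of all entries. The receptor gene Tl rose by 2.12, from 8.66 ± 1.01 to 37.7 ± 4.66 CPM, and cact, Dif, Pli, pll and dl rose by between 0.42 and 1.32, while Myd88 and tub, at -0.13 and -0.10, were not called with TMM and were called higher with total-count scaling. Among the targets of Toll, Drs, which encodes the antifungal peptide Drosomycin, went from 2.15 ± 1.60 to 198.5 ± 15.2 CPM (log2 fold change 6.53, standard error 0.84, adjusted p = 0.00149), or 7.11 without control replicate 2. Mtk, another peptide gene, was at 1.30 ± 2.05 and 1.29 ± 1.79 CPM and was not called (adjusted p = 0.998).

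The melanization genes split. PPO1 and PPO2, the prophenoloxidases of the blood, had 14.2 ± 4.57 and 13.7 ± 4.95 CPM in control libraries and 0.997 ± 0.919 and 1.29 ± 1.31 CPM in EcRi ones (log2 fold changes -3.83 and -3.40, adjusted p = 0.00963 and 0.0234). Neither was called without EcRi replicate 1 (adjusted p = 0.0579 and 0.109), nor PPO2 without control replicate 2 (adjusted p = 0.0521), and without EcRi replicate 2 the log2 fold changes were -4.89 and -4.63. ple and Ddc, the enzymes that make dopa and dopamine, were higher, ple at 4.92 ± 5.71 and 325 ± 43.5 CPM (log2 fold change 6.05, adjusted p = 0.0099, or 7.55 without control replicate 2) and Ddc by 3.05 on the log2 scale. Both also serve the tanning of the cuticle. The convertase genes Fur1 and Fur2 rose by 0.90 and 1.46, while Spn42Da, an inhibitor of such enzymes, fell. amon, a prohormone convertase gene, was called lower with TMM at -0.29 and higher with total-count scaling at 0.37.

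**Figure D5:**
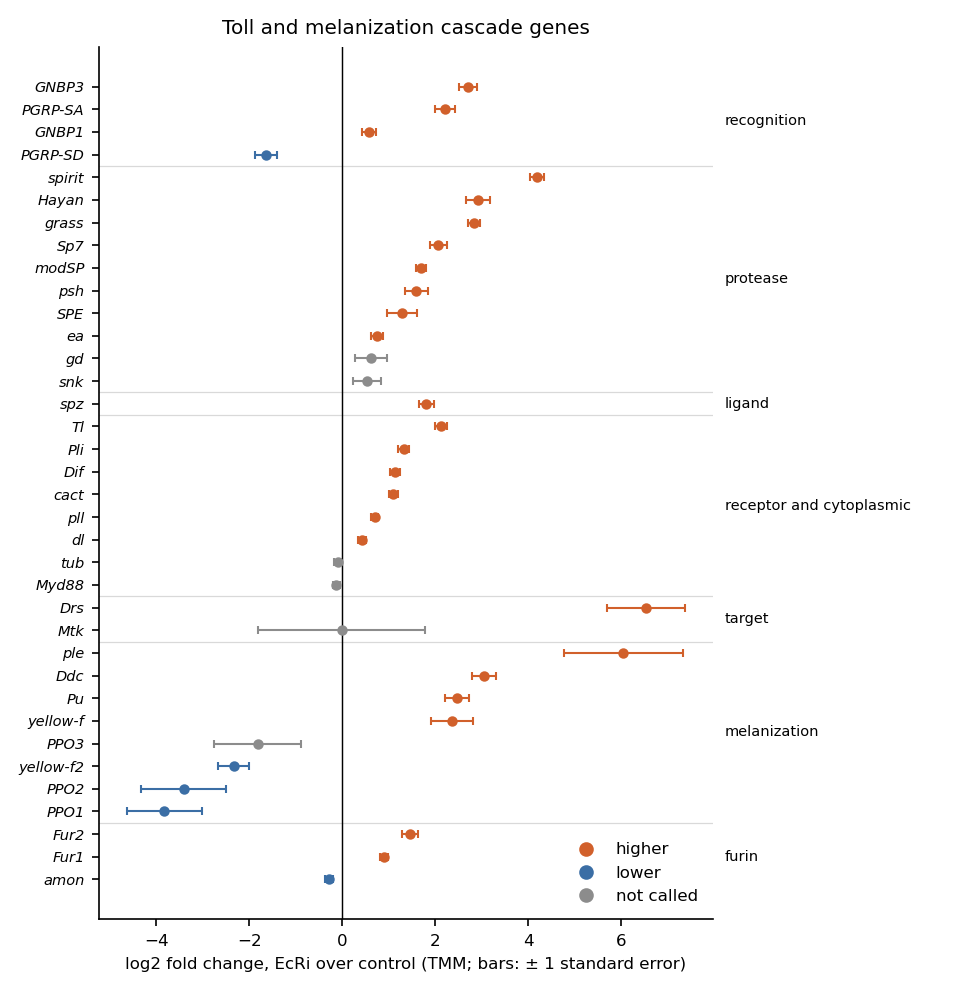
Log2 fold change of the 36 tested Toll and melanization cascade genes (x axis, EcRi over control, TMM, bars ± 1 standard error, n = 3 libraries a genotype), grouped by role and coloured by call. All proteases lie above 0, Drs and ple have the highest values, and PPO1 and PPO2 the lowest; with total-count scaling amon turns to 0.37.

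Whole intestines hold several cell types and adhering tissue, and in bulk RNA fewer cells of a type and less RNA per cell cannot be told apart. Many serpins are known from the fat body and the blood, so marker genes of these were measured beside them. All 7 fat body markers were detected, and their sum was 840.5, 136 and 42.2 CPM in the control libraries and 406, 246 and 1165 CPM in EcRi. Fbp1 was called higher (log2 fold change 6.27, or 7.84 without control replicate 1 and 5.55 without EcRi replicate 3), and the other 6 were not called. The fat body sum differed 19.9-fold among the control libraries and was lowest in control replicate 3. The part of fat body RNA in the serpin values was not tested. The 8 haemocyte markers, all detected, had sums of 227 to 268 CPM in the control and of 229 to 258 CPM in EcRi, most of it from crq (200.2 and 198.8 CPM), and none was called with TMM, while 4 were called higher with total-count scaling.

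All 7 tracheal markers were detected and 5 were higher, beside 30.1% of all tested entries. Their sum went from between 107 and 156 CPM to between 703 and 784 CPM, led by serp and verm. The markers btl (log2 fold change 0.18) and dysf (-0.26) were not called. All 4 Malpighian tubule markers were detected. Their sum was 552 to 716 CPM in the control and 1340 to 1564 CPM in EcRi, most of it from Uro (562 and 1308 CPM). With TMM 2 were higher and 1 was lower, beside 30.1 and 29.3% of all tested entries. Uro and Best2 were the higher ones, and CapaR was lower under both scalings (-1.04 with TMM). ZnT35C was not called with TMM and was called higher with total-count scaling. The sum of the fore- and hindgut and cuticle markers, 5 of 5 detected, went from between 62.2 and 77.8 CPM to between 177 and 239 CPM, with 3 higher. Most of this rise came from Osi7, at 0 in all control libraries and at a mean of 97.8 CPM in EcRi. otp and fkh were higher by 0.66 and 0.82 on the log2 scale, and byn (-0.21) and Twdlalpha (-0.82) were not called. The part of these tissues in the serpin values was not tested.

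Of the enterocyte markers, 6 of 6 were detected and 5 were lower with TMM, beside 29.3% of all tested entries. Their sum was 68300 to 116831 CPM in the control and 11149.8 to 18633 CPM in EcRi. This sum is carried by digestive protease genes. Myo31DF, the gene also known as Myo1A, was not called with TMM, at 688 ± 30.2 and 661 ± 26.5 CPM. With total-count scaling 4 markers were lower, beside 12.7% of all entries. mex1 was then not called (log2 fold change 0.22) and Myo31DF was called higher (0.60). The sum of the salivary gland markers was at most 0.563 CPM. Of the 8 markers of the male accessory gland and testis, SP and Mst84Da were at 0 in all libraries and the sum was at most 0.0742 CPM.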

How the data were processed

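RNA from whole larval intestines was sequenced by the study in 6 libraries, 3 for each genotype. The labels name an RNeasy kit and a SMARTer library preparation, whereas the methods name TRIZOL. Adaptor trimming was done by the authors with Trim Galore!, alignment to dm6 with HISAT2 and counting with featureCounts. The deposited values are raw counts, not normalized, for each library. Versions, strand setting and the treatment of reads that map to several places are not given in the sources used here. A second deposited file was identical and was not used. Symbols came from a gene name table, which held 17855 of the 17895 gene identifiers, and coordinates from Ensembl's BDGP6 annotation.

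The counts were tested with edgeR 4.0.16 under R 4.3.3 (filterByExpr, TMM factors, robust quasi-likelihood test, Benjamini-Hochberg adjustment over all 12193 tested entries, threshold 0.05). TMM factors were 0.713 to 0.845 for control and 1.21 to 1.30 for EcRi libraries. Standard errors are the log2 fold change divided by the square root of F. Exact permutation tests used log2 CPM with 0.5 counts added. Serpins were grouped where the gap to the next was at most 100 kb. Alternatives were limma-voom 3.58.1 (the method the study names), DESeq2 1.42.0, RLE factors, total-count scaling, other filters, genes only, the replicate number as a block, leaving out libraries, a threshold of 0.01 and a test that asks for a change beyond 1 on the log2 scale. Halved counts were added after seeing the data. Libraries of a genotype differed by more than sampling noise. The procedure was also run on simulated counts in which only a small part of the entries changed. Far more entries were called in these data, so that run does not test the choice of scaling.

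Named serpins are those called with at least 10 CPM in 1 genotype, the 5 largest changes each way, and 7 genes with known roles or named in the rule. Named cascade genes are called ones with at least 10 CPM in 1 genotype, and genes named beyond these rules were chosen after their values were seen. The members and lists were chosen with earlier results of these data known. No sequences are given.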

Additional observations from a re-analysis of the deposited data

How the results depend on the processing

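Under DESeq2, limma-voom, RLE factors, no filter, genes only, a threshold of 0.01 and the fits without 1 library, 13 serpin genes were higher and 5 lower, as in the values above. Replicate number as a block also gave 13 and 5. Same-numbered libraries did not deviate together (correlations -0.06, 0.04 and -0.06). This cannot show whether they were collected or processed together, which the labels do not say. With at least 10 counts in every library, 11 were higher and 4 lower, and with counts halved 12 and 4, since fewer genes were tested. Asking for a change beyond 1 on the log2 scale left 12 higher and 2 lower. Total-count scaling gave 15 higher and 2 lower, moved the median to 2.31 and turned Spn42Dc to 0.30, by a shift that all entries shared. Over 15 named serpin genes, 220 of 223 fits kept direction and side of the threshold. These leave out the threshold of 0.01, the fits in which Spn75F was not tested, and the test beyond 1, in which Spn42Dc, Spn42Dd, Spn43Ab and Spn55B were no longer called.

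Among the cascade genes called lower, the count of 5 became 3 without a filter, 3 with the replicate block, 3 at a threshold of 0.01 and 3 when the change had to be beyond 1 on the log2 scale, and was 2 to 5 in the fits without 1 library. PPO1, PPO2 and amon were those no longer called, and with the block PPO1 and PPO2 had adjusted p-values of 0.0556 and 0.0891. The count of 25 higher lay between 17 and 30. Protein and promoter comparisons of the serpins were planned and not run, and the fitted medians were not computed for the test beyond 1. The filter, at about 0.0452 CPM, left 8 serpins untested.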

Other observations

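Genes that are not serpins lie between the outer genes of the 43A, 77B and Acp76A to Spn75F groups. In the wide interval between Acp76A and Spn75F, 8 of 13 such entries were tested, of which 2 were higher and 3 lower, where 30.1 and 29.3% of all tested entries were. Mkp3, a phosphatase gene that acts on ERK, went from 12.8 ± 1.83 to 28.5 ± 1.27 CPM and MESR6 to 22.6 ± 1.77 CPM (log2 fold changes 1.15 and 1.17). Sfxn2, CNPYb and Naxd were lower with TMM at -0.75, -0.43 and -0.94, and with total-count scaling they were at -0.10, 0.23 and -0.28, where Naxd alone was still called. The 2 tested entries within the 77B group, the pseudogene CR6434 and a transposable element, were not called.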
